A study of Mus musculus with 12 samples.

Results

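The response of control melanoma cells to trametinib was measured on 6 of the 12 arrays of the series, chosen by their labels and not by any measured value: 3 arrays of −dox cells with trametinib were compared with 3 arrays of −dox cells with DMSO, the solvent. C790 is a mouse melanoma cell line with mutant Nras. Both groups held infected cells with a pair of lentiviral vectors, M2mCherry and a vector with Oct4, Klf4 and Sox2 under a doxycycline-responsive element and a blasticidin resistance gene, and were kept in medium with no doxycycline, the inducer, up to day 20. DMSO or trametinib was given for 72 h. The trametinib dose used for the arrays was not given in the sources used here. The other 6 arrays, of partially reprogrammed (+dox) cells, entered the same limma fit. The groups share its estimate of the spread, so the −dox calls rest partly on the +dox arrays. These arrays also entered the choice of probe sets and the background level, and show below where the −dox response differed. A fit of the 6 −dox arrays alone called 1223 genes over 2-fold, against 1380 in the fit of all 12. The labels do not say whether the arrays of a group came from separate cultures, so the p-values measure the spread between these arrays, which may be technical, and their number limits the precision.

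Trametinib blocks MEK, the kinase that activates ERK at the end of the RAS-RAF-MEK-ERK cascade, which mutant Nras keeps switched on in these cells. Active ERK induces early transcription factors, D cyclins and its own inhibitors, such as the DUSP phosphatases and the Sprouty and Spred proteins, so the RNA of these genes is a common readout of the pathway. Melanoma cells that lose ERK signalling are known to leave the cell cycle, and their pigment programme is controlled by the transcription factor MITF.

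Melanocyte identity was checked first. Of 10 melanocyte markers, Mitf, Sox10, Pmel and Pax3 were above the background level, a log2 value of 4.87 set from probe sets of taste and smell receptor genes. Tyr, Tyrp1, Dct, Mlana, Ednrb and Kit were not above it in either group, so the pigment enzymes that define a differentiated melanocyte were not seen at this sensitivity. Mitf, the lineage's main regulator, was at 7.13, 7.84 and 7.66 with DMSO and at 8.68, 8.13 and 8.3 with trametinib. Its arrays did not overlap, but the difference of 0.83 did not pass the test (adjusted p = 0.058). Of the factors on the vector, Sox2 and Klf4 did not pass (-0.45 and 0.59), and Pou5f1 (Oct4) was at 4.3, 4.73 and 4.87 with DMSO and rose to 5.61, 5.56 and 5.32, by at least 0.63 (adjusted p = 0.0032). Whether these probe sets read vector RNA, the cell's own RNA or both was not checked.

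The DMSO arrays were not equally alike. DMSO replicate 1 lay at a Euclidean distance of 77.7 and 68.4 log2 units from replicates 2 and 3 over all 18193 genes, where the latter lay 28.2 apart. Distances between DMSO and trametinib arrays ran from 88.4 to 104.8, and those among trametinib arrays from 36.9 to 63.3. DMSO replicate 1 differed over 2-fold from the mean of the other 2 DMSO arrays in 5.7% of genes, against 0.6% to 3.0% for the other 5 arrays measured the same way, and was the lower in 69.3% of genes. Results that rest on it are given with and without it. Replicates named without a prefix are −dox arrays. In these whole cultures, fewer cells of a kind and less RNA per cell cannot be told apart.

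Promoters of genes from 3 lists are printed here because each holds a short sequence known from such promoters: mitosis genes that fell, and lysosome and interferon response genes that rose. The sequences are from RefSeq on GRCm38.p6 and run from 250 bases before to 50 bases after the gene's start. Capitals mark the motif, searched on both strands. A window was found for 14368 of the 18193 tested genes, and 2648 had several. A gene was counted as holding a motif if any of its windows held it. The first motif is TTTGAA (or TTCAAA on the other strand), the cell cycle homology region of mitotic promoters, in the 3 mitosis genes with the largest falls that hold it.
Kif11, chr19:37376132-37376431, plus strand: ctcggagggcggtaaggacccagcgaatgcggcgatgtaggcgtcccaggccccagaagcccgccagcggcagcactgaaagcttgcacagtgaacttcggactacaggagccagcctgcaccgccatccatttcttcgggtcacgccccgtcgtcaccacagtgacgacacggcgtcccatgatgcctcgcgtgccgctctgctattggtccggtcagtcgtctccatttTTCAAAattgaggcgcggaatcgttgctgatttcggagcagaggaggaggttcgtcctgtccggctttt
Cenpa, chr5:30666636-30666935, plus strand: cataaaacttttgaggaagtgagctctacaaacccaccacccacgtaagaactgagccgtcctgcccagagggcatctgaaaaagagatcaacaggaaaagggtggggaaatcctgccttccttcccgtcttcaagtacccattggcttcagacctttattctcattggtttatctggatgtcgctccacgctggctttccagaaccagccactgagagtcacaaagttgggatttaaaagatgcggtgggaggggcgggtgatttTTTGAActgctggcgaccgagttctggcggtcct
Ttk, chr9:83834439-83834738, plus strand: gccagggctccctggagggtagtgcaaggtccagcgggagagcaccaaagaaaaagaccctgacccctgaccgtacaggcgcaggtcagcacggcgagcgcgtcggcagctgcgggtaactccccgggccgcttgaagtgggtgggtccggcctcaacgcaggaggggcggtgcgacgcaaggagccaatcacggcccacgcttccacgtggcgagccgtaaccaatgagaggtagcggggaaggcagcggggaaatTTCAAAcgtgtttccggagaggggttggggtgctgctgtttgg
In Kif11 it starts 19 bases before the start, and in Cenpa and Ttk at bases 17 and 8 after it. Of 25 mitosis genes with a window, 18 held it (72.0%), against 2250 of all 14368 genes (15.7%). Among the 649 genes with a window that fell over 2-fold, 155 held it (23.9%). Over the 250 bases before the start alone the shares were 36.0% of the mitosis genes, 17.4% of those that fell and 14.1% of all. CCAAT, a box read by NF-Y, was held by 72.0% of the mitosis genes and 62.1% of 29 DNA replication genes with a window, against 42.0% of all genes. TTCCCGCC, a letter form read by E2F factors, was held by 5 of the 29 replication genes (17.2%) and by 3.78% of all genes. Over the 250 bases alone the shares were 6.9% and 3.23%.

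The motif CACGTG, an E-box read by MYC, MITF and TFE factors and the same on both strands, is shown in lysosome genes that rose.
Atp6v1a, chr16:44139210-44139509, minus strand: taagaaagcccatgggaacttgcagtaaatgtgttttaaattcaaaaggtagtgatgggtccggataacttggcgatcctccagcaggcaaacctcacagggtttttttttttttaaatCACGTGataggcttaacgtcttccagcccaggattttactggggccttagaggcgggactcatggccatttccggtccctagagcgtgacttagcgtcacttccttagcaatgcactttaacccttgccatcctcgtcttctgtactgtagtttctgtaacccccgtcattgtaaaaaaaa
Ctsa, chr2:164833523-164833822, plus strand: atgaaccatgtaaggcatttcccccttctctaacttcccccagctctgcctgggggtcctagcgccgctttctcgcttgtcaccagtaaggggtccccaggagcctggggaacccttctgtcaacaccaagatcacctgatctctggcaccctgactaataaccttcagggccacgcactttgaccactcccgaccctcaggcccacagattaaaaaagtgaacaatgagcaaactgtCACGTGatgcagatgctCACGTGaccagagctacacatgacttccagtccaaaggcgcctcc
Lamp1, chr8:13158911-13159210, plus strand: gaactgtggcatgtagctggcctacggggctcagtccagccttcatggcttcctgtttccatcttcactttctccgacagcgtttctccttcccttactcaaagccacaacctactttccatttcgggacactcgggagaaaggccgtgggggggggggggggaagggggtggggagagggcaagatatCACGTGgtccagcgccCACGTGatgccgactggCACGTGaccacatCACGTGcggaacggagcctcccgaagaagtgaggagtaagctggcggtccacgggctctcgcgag
Lamp1 holds 4 copies and Ctsa holds 2. Of 27 lysosome and autophagy genes with a window, 11 held CACGTG (40.7%), against 10.3% of all genes, and 9 of 34 ribosome biogenesis genes held it (26.5%), a group that fell. Among the 412 genes with a window that rose over 2-fold the share was 14.3%, and 12.9% over the 250 bases before the start. Over the 250 bases before the start the lysosome share was 37.0%, and the ribosome biogenesis share was 8.82% beside 8.74% of all genes. CCGGAAG, the core read by ETS factors, was held by 32.4% of the ribosome biogenesis genes and 34.5% of the replication genes, against 15.0% of all genes. Over the 250 bases alone the shares were 20.6% and 34.5% against 11.8%. A match of letters is a description and not a bound site.

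TTTC, any 2 bases and TTTC again, the core of the interferon-stimulated response element, is shown in interferon response genes that rose.
Gbp2, chr3:142620413-142620712, plus strand: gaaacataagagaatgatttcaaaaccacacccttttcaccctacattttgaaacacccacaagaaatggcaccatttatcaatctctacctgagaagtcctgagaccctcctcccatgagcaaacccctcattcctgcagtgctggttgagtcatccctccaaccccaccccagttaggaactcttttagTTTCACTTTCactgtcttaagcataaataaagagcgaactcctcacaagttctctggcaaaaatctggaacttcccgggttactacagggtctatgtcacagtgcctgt
Ifit1, chr19:34640639-34640938, plus strand: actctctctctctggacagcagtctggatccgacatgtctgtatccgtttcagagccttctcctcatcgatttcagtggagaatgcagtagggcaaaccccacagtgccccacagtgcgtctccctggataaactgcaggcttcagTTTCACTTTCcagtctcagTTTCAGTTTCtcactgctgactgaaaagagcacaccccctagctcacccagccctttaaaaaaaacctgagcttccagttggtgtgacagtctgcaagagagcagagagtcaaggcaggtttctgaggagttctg
Igtp, chr11:58199306-58199605, plus strand: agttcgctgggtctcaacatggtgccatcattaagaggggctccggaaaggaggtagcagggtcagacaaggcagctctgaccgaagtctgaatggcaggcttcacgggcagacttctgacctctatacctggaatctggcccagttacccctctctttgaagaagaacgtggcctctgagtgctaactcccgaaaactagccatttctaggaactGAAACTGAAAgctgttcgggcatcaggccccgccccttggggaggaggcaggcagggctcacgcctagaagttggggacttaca
Ifit1 holds 2 copies, and the copy in Igtp is on the other strand. Only 23 of 30 interferon response genes had a window, so no share over this list is given. Of the 412 genes with a window that rose over 2-fold, 6.55% held the motif, against 3.64% of all genes.

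Trametinib changed 1380 of 18193 genes over 2-fold in −dox cells (7.59% of genes, limma adjusted p under 0.05): 815 fell (4.48%) and 565 rose (3.11%). Without a fold threshold 4072 genes passed (22.4%), 2113 of which rose (11.6%) and 1959 fell (10.8%), and the median change over all genes was 0.06 on the log2 scale. The falls reached further than the rises. Over 4-fold, 253 genes fell and 95 rose, over 8-fold 47 fell and 31 rose, and over 16-fold 11 fell and 6 rose. When each array was centred on its own median, the median of all genes moved by 0.13, and 802 genes rose and 678 fell, so that the share of rises among the genes called went from 40.9% to 54.2%. The balance of rises and falls thus depends on the scaling of the arrays. Without DMSO replicate 1, 524 genes rose and 926 fell.

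**Figure D1:**
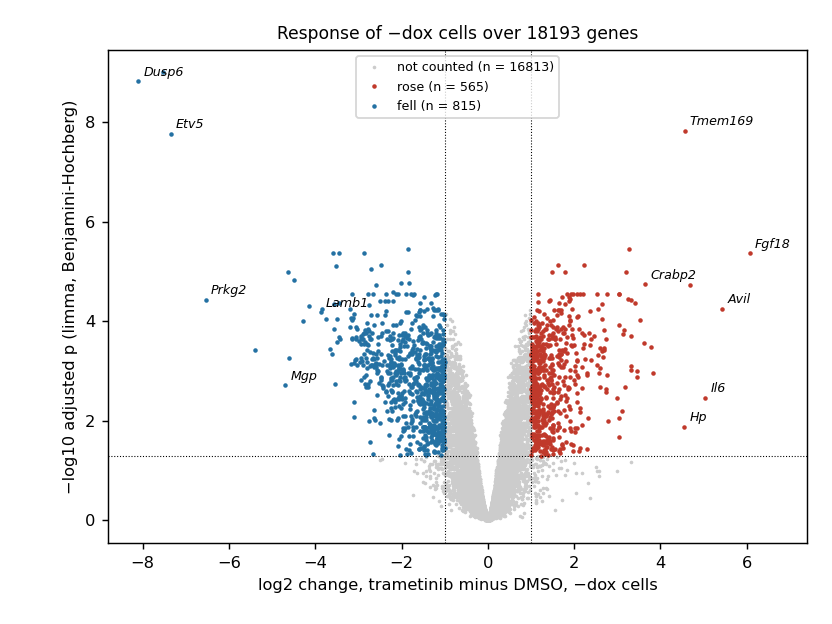
Log2 change (trametinib minus DMSO, −dox cells, n = 3 arrays per group) on the x axis against −log10 of the limma adjusted p on the y axis for 18193 genes. Dotted lines mark a 2-fold change and an adjusted p of 0.05; blue points are the 815 genes that fell and red points the 565 that rose, and the falls extend further from 0 than the rises.

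Outside the ERK targets, the largest fall was that of Prkg2, a cGMP-dependent protein kinase. It was at 9.07, 11.57 and 11.32 with DMSO and at 4.37, 4.29 and 3.68 with trametinib. No trametinib array reached the background level, so the fall is given as at least 5.78 log2 units (adjusted p = 3.7e-05), with other probe sets of Prkg2 at -7.79 and -1.45. Tnnt2, cardiac troponin T, was at 8.29, 11.52 and 11.08 with DMSO and at 4.41, 5.53 and 4.76 with trametinib. It fell 42.1-fold (log2 change -5.40, standard error 0.702, adjusted p = 0.00038). In both genes DMSO replicate 1 was the lowest of the DMSO arrays and still lay above every trametinib array. Mgp, a secreted inhibitor of calcification, fell 25.9-fold, from 12.69, 12.95 and 13.31 to 6.29, 9.46 and 9.11, with trametinib replicate 1 far below the other trametinib arrays (adjusted p = 0.0019). Lamb1, a laminin chain of the basement membrane, fell 14.7-fold, from 11.51, 11.91 and 11.78 to 7.93, 8.3 and 7.35 (standard error 0.364 on the log2 scale, adjusted p = 6.5e-05). The groups of Lamb1 were each tight and far apart. Psrc1, a spindle protein, fell 19.6-fold (log2 change -4.29, another probe set at -3.00). Esm1, a secreted proteoglycan of endothelial and tumour cells, fell by at least 3.0 log2 units.

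The cellular retinoic acid binding proteins moved in opposite directions. Crabp1 was at 8.75, 7.61 and 8.23 with DMSO and at 4.2, 4.02 and 3.92 with trametinib, a fall of at least 3.33 log2 units (adjusted p = 4.9e-05). Crabp2 was at 5.88, 5.59 and 5.77 with DMSO and at 9.23, 9.33 and 9.59 with trametinib, a 12.4-fold rise (standard error 0.264 on the log2 scale, adjusted p = 1.8e-05). No array overlapped between the groups in either gene.

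Among the rises, Fgf18, an FGF ligand, went from a mean of 4.33 with DMSO to 10.4 with trametinib. It rose by at least 5.53 log2 units (adjusted p = 4.3e-06). Avil, which encodes the actin-binding protein advillin, was at 7.83, 5.53 and 6.18 with DMSO and at 12.48, 11.31 and 12.07 with trametinib. The 43.4-fold rise (standard error 0.494 on the log2 scale, adjusted p = 5.6e-05) was carried by every trametinib array. Tnfrsf11b, the decoy receptor osteoprotegerin, rose from 3.69, 3.95 and 4.87 to 8.7, 8.57 and 9.29, by at least 3.98 log2 units (adjusted p = 1.9e-05). Another probe set of Tnfrsf11b was at 3.09. Tmem169, a membrane protein, rose from 4.18, 4.01 and 4.18 to 8.35, 8.8 and 8.9, by at least 3.81 (adjusted p = 1.5e-08). Tmem169 had tight arrays in both groups, with a standard error of 0.142. Atf3, a stress-induced transcription factor that is also an early gene, rose 11.6-fold, from 5.33, 5.97 and 5.84 to 8.77, 9.82 and 9.15. Pdzph1 rose by at least 3.48 log2 units, Snap91, a clathrin assembly protein of neurons, 14.3-fold and Gm4951 by 3.46.

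The rise of Hp, the acute phase protein haptoglobin, was the least even of these. It was at 7.9, 4.9 and 4.95 with DMSO and at 13.58, 8.52 and 9.29 with trametinib, so that replicate 1 was the highest array in both groups. The 23.4-fold rise had a standard error of 1.12 on the log2 scale and an adjusted p of 0.013, which became 0.053 without DMSO replicate 3. Il6, an inflammatory cytokine, had replicate 1 as the highest in both groups as well, at 9.04 against 6.42 and 5.97 and at 13.11 against 12.53 and 10.92, and kept its call whichever array was left out (highest adjusted p 0.017).

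**Figure D2:**
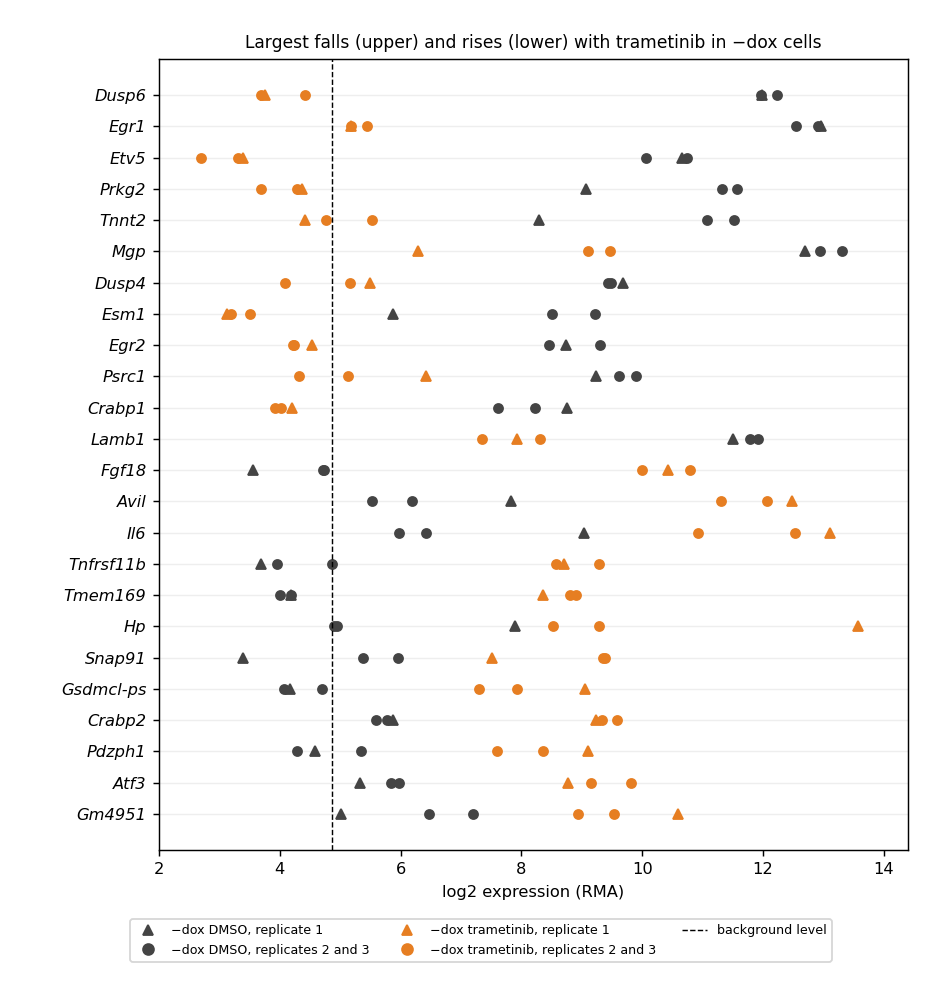
Log2 expression on the x axis of the 12 genes with the largest falls and the 12 with the largest rises among genes whose arrays did not overlap; each point is an array, grey for DMSO and orange for trametinib, triangles are replicate 1 and the dashed line is the background level of 4.87. With trametinib, 6 of the 12 falling genes lie under the background level on every array, and in Prkg2, Tnnt2 and Esm1 DMSO replicate 1 lies below the other DMSO arrays.

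A group of genes crossed the background level. Of the 1380 genes over 2-fold, 58 were above it on every DMSO array and below it on every trametinib array, and 41 went the other way. With the level at the 90th percentile of the receptor probe sets (4.61) the counts were 43 and 31, and with the 99th (5.42) they were 92 and 45. Genes below the level after trametinib included Dctd, a deoxycytidylate deaminase, from 7.37, 7.78 and 7.8 to 4.41, 3.88 and 4.32, and Ung, the uracil DNA glycosylase, from 6.81, 7.69 and 7.64 to 4.78, 4.75 and 4.6. They fell by at least 2.78 and 2.51. Trp63, the p63 transcription factor, fell by at least 2.61, the clock gene Per2 by at least 1.75, and Arc, an activity-induced early gene, by at least 1.48. Genes that came up from below it included Lrp4, a receptor of the LDL receptor family, from 4.7, 3.99 and 4.14 to 7.81, 7.5 and 7.77, by at least 2.82, and Prdm1, the transcriptional repressor Blimp-1, from 4.55, 4.47 and 4.73 to 6.69, 6.85 and 6.8, by at least 1.91. The transcription factor Nfe2l3 rose by at least 2.75, and Cited1, a transcriptional co-regulator, by at least 1.35. The genes of this paragraph were chosen after their values were seen, among the genes that crossed the level.

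Of 16 measured ERK feedback phosphatases and inhibitors, 10 fell and 1 rose, with a median of -2.65 beside 0.06 over all genes (10.8% of all genes fell and 11.6% rose). Members of the DUSP, Sprouty and Spred families fell. Dusp6, a DUSP phosphatase, fell by at least 7.19 and Spry4 by at least 2.03, with other probe sets of Spry4 at -1.20 and -1.11. Spred2, a membrane-bound RAS pathway inhibitor, fell 7.34-fold, and Spry2, a Sprouty inhibitor, 6.03-fold. The levels of Spred2 were 10.58, 10.46 and 10.67 with DMSO and 7.94, 7.38 and 7.76 with trametinib, and other probe sets of Spred2 were at -1.39 and 0.08. The families did not move as a whole. Dusp1, the nuclear MAP kinase phosphatase, was at 10.02, 11.32 and 11.61 with DMSO and at 11.96, 11.17 and 11.31 with trametinib, and its groups overlapped (log2 change 0.50, adjusted p = 0.59). Dusp5 and Lrig1 did not pass (-0.70 and -0.13). The member that rose, Dusp10, a phosphatase of the stress kinases, had a change of 0.94 and lost its call when any of 8 single arrays was left out, 4 of them −dox arrays (DMSO replicate 1 and the 3 trametinib arrays).

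Of 23 measured ERK-induced transcription factors, 12 fell and 4 rose, with a median of -1.07, beside 10.8% and 11.6% of all genes. Etv5, an ETS factor, fell by at least 5.62 log2 units, from a mean of 10.49 to 3.13 (adjusted p = 1.7e-08). Other probe sets of Etv5 were at -4.26 and -3.97. Those that fell also included Hmga2, a chromatin protein, by 3.58 on the log2 scale from 11.39, 11.15 and 11.03 to 7.92, 7.65 and 7.25. Myc fell by 3.44, from 10.67, 10.0 and 10.29 to 7.83, 6.78 and 6.02. Atf3, Fosl2, Jund and Klf10 rose, by 3.53, 1.44, 0.90 and 0.84. Within the AP-1 family, then, Fosl1 fell by 2.00 and Fosl2 and Jund rose, while Jun (0.27, adjusted p = 0.59) and Junb (-0.05, adjusted p = 0.88) did not pass. Among 14 EGF family ligands and other factors linked to ERK, 4 fell and 0 rose. Phlda1 fell 8.53-fold and Ccnd1, cyclin D1, 11.4-fold, from 12.06, 12.31 and 12.25 to 8.94, 8.64 and 8.51. Nrg1, the ligand of ERBB3, fell by 1.32.

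In the cascade itself, 5 of 17 measured genes rose and 2 fell, most by less than 2-fold. Braf rose by 0.70 (adjusted p = 0.0043) and Map2k1, which encodes MEK1, by 0.65 (adjusted p = 0.0096), while Nras did not pass, at 10.21, 10.68 and 10.59 with DMSO and 10.3, 10.63 and 10.57 with trametinib (0.01, standard error 0.141). The probe sets of Braf disagreed, with other sets at -0.52 and -0.40, and its call was lost in the mean of probe sets (adjusted p = 0.4). In the cascade 1 gene fell without DMSO replicate 2, DMSO replicate 3 or trametinib replicate 3. Of 27 receptor tyrosine kinases, 3 rose and 4 fell, beside 11.6% and 10.8% of all genes, and 2 fell without trametinib replicate 3. Erbb3, the neuregulin receptor, fell 4.06-fold, from 7.65, 6.94 and 7.31 to 5.13, 5.15 and 5.56, and Flt1, a VEGF receptor, fell by 0.89 (another probe set at -2.29). Ror1, a Wnt5a receptor, rose by 1.90, from 6.27, 5.45 and 5.88 to 6.93, 8.27 and 8.09. Ddr1, a collagen receptor, rose by 0.78 and Met, the HGF receptor, by 0.64. Axl was at 11.39, 11.67 and 11.78 and at 11.12, 11.33 and 11.14, a difference of -0.42 that did not pass (adjusted p = 0.2). Of 10 FGF ligands, Fgf18 rose and 0 fell, with 2 falls without DMSO replicate 1 and 1 without +dox DMSO replicate 1.

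Genes of the cell cycle fell together, where 10.8% of all genes fell. All 31 measured mitosis genes fell in the fit of 12 arrays, and 30 or 31 fell when any array was left out, with a median of -2.65 and a range over the left-out arrays from -2.91 to -2.5. The largest falls were those of Kif11, the spindle motor Eg5, Cenpa, the centromeric histone, and Ttk, the checkpoint kinase MPS1, whose promoters are printed above. Kif11 went from 8.44, 8.94 and 8.91 to 5.83, 5.54 and 5.36 (9.11-fold, standard error 0.289 on the log2 scale, adjusted p = 5.6e-05), with another probe set of Kif11 at -1.73. Cenpa went from 10.92, 11.41 and 11.39 to 8.64, 7.88 and 7.72, an 8.94-fold fall. Ttk went from 8.6, 8.95 and 9.03 to 6.18, 5.46 and 5.49, an 8.88-fold fall. In all 3 genes DMSO replicate 1 was the lowest DMSO array and trametinib replicate 1 the highest trametinib array. The smallest fall in the list was that of Nuf2, of the kinetochore, at -1.37.

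Of 35 DNA replication genes, 30 fell and 0 rose, with a median of -1.64, beside 10.8% and 11.6% of all genes. Cdt1, the licensing factor, fell 6.93-fold, from 10.94, 10.95 and 10.95 to 8.6, 8.12 and 7.74, Pole, the leading strand polymerase, by 2.78 and Prim1, a primase subunit, by 2.71. All 6 subunits of the MCM2-7 helicase fell, from 1.64 (Mcm2) to 2.61 (Mcm3) log2 units, though another probe set of Mcm3 was at -0.74. Fen1, the flap endonuclease, did not pass (-0.61, adjusted p = 0.085), and neither did Gins4 (-0.34). Of 23 genes of homologous recombination and Fanconi repair, 15 fell and 0 rose, with a median of -1.23: Rad54b by at least 2.55, Exo1, an exonuclease, 6.59-fold and Brca1 4.69-fold. Fancc, Fance and Fancf, of the Fanconi core complex, did not pass (0.16, -0.38 and -0.39). In these lists leaving out an array gave 27 to 32 and 13 to 16 falls.

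The genes that control entry into S phase were more mixed. Of 23 cyclins, kinases, E2F factors and inhibitors of G1, 8 fell and 2 rose, beside 10.8% and 11.6% of all genes. Rb1, the retinoblastoma tumour suppressor, was at 9.42, 9.24 and 9.32 with DMSO and at 11.08, 10.88 and 10.89 with trametinib, and rose 3.08-fold (standard error 0.101 on the log2 scale, adjusted p = 7.4e-06). The D cyclins did not move alike: Ccnd1 and Ccnd2 fell by 3.51 and 1.43, and Ccnd3 rose by 0.73. E2f7 and E2f8, the repressor E2Fs, fell by 2.32 and 2.35. Cdkn1b, the CDK inhibitor p27, was at 11.24, 11.09 and 11.24 and at 11.21, 11.24 and 11.24 (0.04, adjusted p = 0.91). Of 25 p53 targets, 7 fell and 5 rose, beside the same shares of all genes. Among them were Btg2 (-1.94), Plk2 (-1.92) and the death receptor Fas (1.67).

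Of 23 Polycomb and DNA methylation genes, 9 fell and 0 rose, with a median of -0.27, beside 10.8% and 11.6% of all genes. Uhrf1, which brings the maintenance methyltransferase to replicated DNA, was at 9.87, 9.97 and 10.07 with DMSO and at 7.65, 7.02 and 6.65 with trametinib, a 7.28-fold fall (adjusted p = 0.00046). Hells, a remodeller, fell by 2.80 (another probe set at -1.33), Dnmt1, the maintenance methyltransferase, by 1.69 and Ezh2, the PRC2 methyltransferase, by 1.46. The other PRC2 core subunits Suz12 and Eed did not pass (-0.49 and -0.21). With median centring 7 fell and 1 rose.

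Of 39 ribosome biogenesis genes, 23 fell and 0 rose, with a median of -0.53 and 18 to 24 falls when an array was left out. Genes of the snoRNP proteins led: Dkc1 fell 3.34-fold, from 10.11, 10.15 and 10.35 to 8.53, 8.46 and 8.4 (adjusted p = 2.9e-05), Fbl, fibrillarin, by 1.65 and Gar1 by 1.59. Ubtf, a factor of ribosomal DNA transcription, did not pass (0.07). Of 32 nuclear genes of the respiratory chain, 6 fell and 1 rose, but 12 fell without DMSO replicate 1 and 3 without DMSO replicate 2. Of all genes, 10.8% fell and 11.6% rose.

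Of 32 lysosome and autophagy genes, 14 rose and 0 fell, with a median of 0.38 and 12 to 15 rises when an array was left out, beside rises in 11.6% of all genes. The rises were about 2-fold or smaller. Lamp2, a lysosomal membrane protein, was at 11.32, 11.35 and 11.42 with DMSO and at 12.37, 12.63 and 12.59 with trametinib, a 2.24-fold rise (standard error 0.122 on the log2 scale, adjusted p = 0.00012). Npc1, which exports cholesterol from lysosomes, rose 2.29-fold, from 7.06, 6.69 and 6.68 to 7.92, 8.13 and 7.96. Atp6v1a, of the proton pump, rose by 1.18, the protease Ctsa by 0.97 and Hexa, a hexosaminidase, by 0.96. Ctsd, cathepsin D, rose by 0.75. The autophagy genes Map1lc3b and Sqstm1 did not pass (0.51 and 0.18), and another probe set of Map1lc3b was at -1.11. Of 20 genes of the unfolded protein response, 6 rose and 0 fell, led by the chaperone Dnajb11 (2.36-fold), with 3 rises without trametinib replicate 2 and 11 with median centring. Hspa5 (BiP), its usual marker, did not pass (0.35, adjusted p = 0.088).

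**Figure D3:**
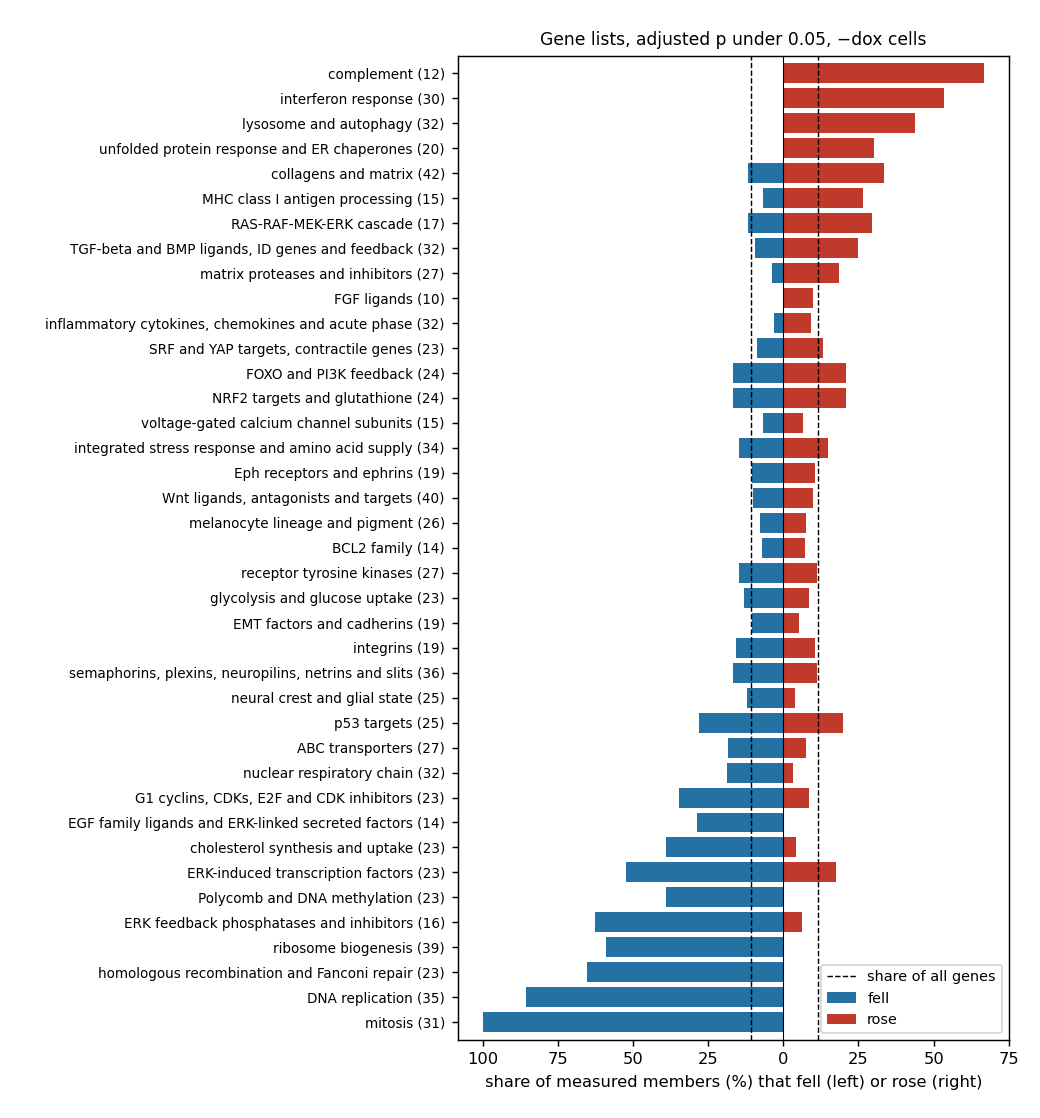
Share of measured members (x axis, %) that fell (blue, left) or rose (red, right) at a limma adjusted p under 0.05 for 39 gene lists (y axis, number of measured members in brackets). The dashed lines mark the shares of all genes, 10.8% fell and 11.6% rose; mitosis, DNA replication and homologous recombination lie furthest to the left, and complement, interferon response and lysosome furthest to the right.

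Interferon response genes rose less evenly. Of 30 measured, 16 rose and 0 fell, with a median of 1.28, but 10 rose without DMSO replicate 3, 8 in a fit of the 6 −dox arrays alone and 22 at most when another array was left out. Gbp2, a guanylate binding protein, was at 9.24, 10.17 and 9.46 with DMSO and at 13.15, 11.83 and 11.99 with trametinib, a rise of 2.70 (adjusted p = 0.00035). Igtp, an immunity GTPase, went from 9.4, 9.94 and 9.41 to 12.18, 11.11 and 11.21, a rise of 1.92 (adjusted p = 0.00094). In both genes trametinib replicate 1 was the highest and DMSO replicate 2 the highest of its group. Ifit3 and Oasl2 did not pass (1.69 and 1.13, adjusted p = 0.064 and 0.055). Of 15 antigen processing genes, 4 rose and 1 fell, beside 11.6% and 10.8% of all genes, and 2 rose without DMSO replicate 3. B2m, the light chain of MHC class I, rose by 0.84, and the heavy chains H2-D1 and H2-K1 did not pass (0.53 and 0.59), with trametinib replicate 1 the highest array in all 3 genes.

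Of 12 complement genes, 8 rose and 0 fell, with a median of 1.28. This count was fragile: 2 rose without trametinib replicate 1, 3 without DMSO replicate 2 or DMSO replicate 3, 4 without trametinib replicate 3 and 5 without +dox trametinib replicate 3. Cd59a, an inhibitor of the lytic complex, kept its call throughout, at 7.32, 7.23 and 7.46 with DMSO and 9.04, 8.77 and 9.28 with trametinib (1.69, adjusted p = 0.00083). Of 32 inflammatory genes, 3 rose (Il6, Ccl7 and Il33) and 1 fell (Lif, by 1.08). Both counts are under the shares of all genes (11.6% rose and 10.8% fell). The fall of Lif was lost when any of the 6 +dox arrays, DMSO replicate 1 or trametinib replicate 2 or 3 was left out, and 1 gene rose without DMSO replicate 2, DMSO replicate 3 or trametinib replicate 1. Cxcl1, a neutrophil chemokine, was at 13.18, 9.63 and 10.43 with DMSO and at 13.98, 11.36 and 11.25 with trametinib. Its replicate 1 was the highest array of both groups, and the difference of 1.12 did not pass (adjusted p = 0.42).

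Of 23 cholesterol synthesis and uptake genes, 9 fell and 1 rose, with a median of -0.47, beside 10.8% and 11.6% of all genes. The rise, of Ebp, was lost without DMSO replicate 1 or 2, trametinib replicate 2 or 3 or +dox trametinib replicate 3, 2 genes rose without trametinib replicate 1, and 4 fell when −dox DMSO replicate 2 or −dox DMSO replicate 3, or either of trametinib replicates 1 and 3 was left out. Insig1, a sterol-regulated brake on the pathway, fell by 2.24 from 10.27, 11.4 and 11.41 to 8.16, 9.27 and 8.92, Lss, the enzyme that closes the sterol rings, by 1.61 (another probe set at -0.46) and Stard4, a sterol carrier, 3.04-fold. Hmgcs1, an early enzyme of the same pathway, did not pass (-0.24, adjusted p = 0.57), nor did the desaturases Scd1 and Scd2 (-0.12 and -0.35).

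Metabolic genes outside this pathway moved singly. Of 23 glycolysis and glucose uptake genes, 2 rose and 3 fell, near the shares of all genes (11.6% rose and 10.8% fell), and 4 rose without DMSO replicate 1 or +dox DMSO replicate 2. This list included Pigq, which entered through the symbol Gpi1, is not a glycolysis gene and did not pass. Gapdh and Eno1 were not measured. The glucose transporters went in opposite directions: Slc2a1 was at 10.96, 10.26 and 10.41 with DMSO and rose 2.68-fold to 12.05, 11.76 and 12.09, and Slc2a3 was at 8.16, 8.03 and 8.17 and fell by 1.61 to 6.36, 6.61 and 6.56. Pfkfb3, which makes an activator of glycolysis, rose by 1.69, Pfkfb4 fell by 0.71 and Ldhb, a lactate dehydrogenase subunit, fell 3.38-fold. Ldha, Pgk1 and Tpi1 did not pass (0.31, 0.21 and 0.43). Of 34 genes of the integrated stress response and amino acid supply, 5 rose and 5 fell, beside 11.6% and 10.8% of all genes. Those that fell included the serine synthesis enzymes Phgdh, 5.02-fold from 10.23, 11.87 and 11.52 to 8.47, 9.39 and 8.78, and Psat1, 4.19-fold, and the glutamine transporter Slc1a5, by 1.54. In this list 3 rose without trametinib replicate 2, and falls numbered 3 without −dox DMSO replicate 2 or −dox DMSO replicate 3, or either of trametinib replicates 1 and 3, and 16 with array weights. Of 24 NRF2 targets, 5 rose, led by the haem oxygenase Hmox1 (3.11-fold), and 4 fell, among them Gstm1 (-1.63) and Tkt (-1.03), and 2 fell without −dox DMSO replicate 2 or −dox DMSO replicate 3, or either of trametinib replicates 2 and 3. Another probe set of Tkt was at 0.03.

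**Figure D4:**
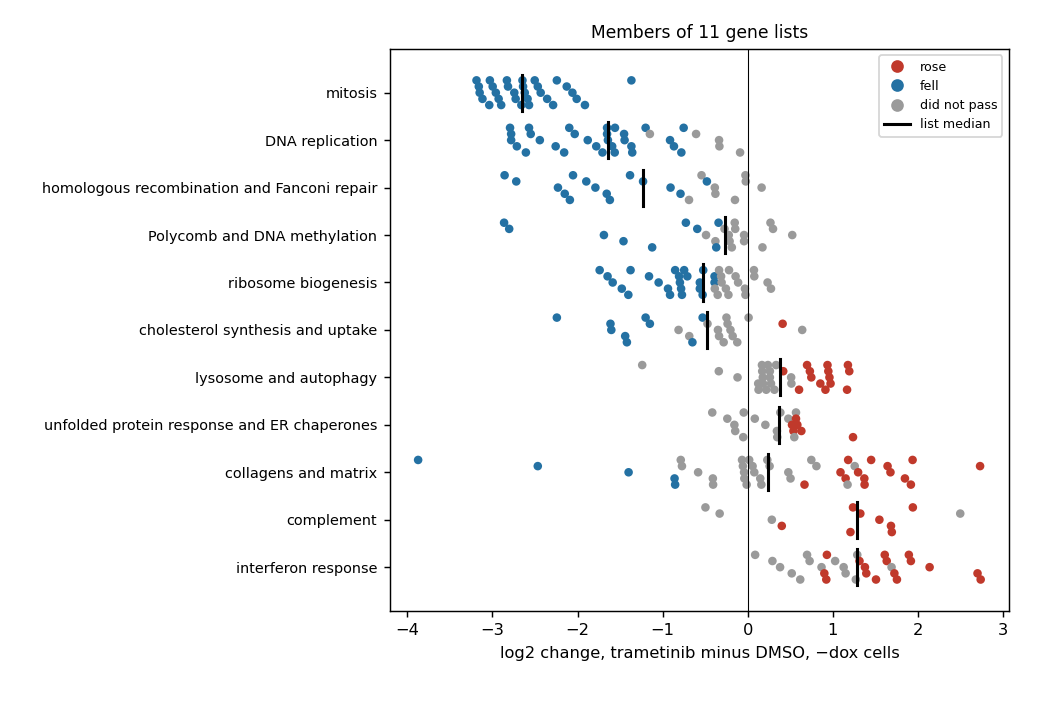
Log2 change (x axis, trametinib minus DMSO, −dox cells) of each measured member of 11 gene lists (y axis); red members rose, blue members fell and grey members did not pass, and the black bar is the list's median. The medians run from -2.65 for mitosis to 1.28 for complement and interferon response, and the collagen and matrix list spreads to both sides.

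Genes of the extracellular matrix moved in both directions. Of 42 collagens and matrix genes, 14 rose and 5 fell, with a median of 0.24, and 7 rose without trametinib replicate 3. Col3a1, a fibrillar collagen, rose 3.78-fold, from 10.59, 10.91 and 10.65 to 12.52, 12.85 and 12.53. Nid2, a basement membrane linker, rose 6.63-fold, from 6.47, 8.17 and 8.35 to 9.59, 10.68 and 10.91, while its paralogue Nid1 fell by 0.86. Of the laminin chains, Lamb1 fell as given above and Lamc1 rose by 1.15. Loxl1, a matrix cross-linking oxidase, fell by 2.47. Fn1, fibronectin, did not pass at 13.71, 13.63 and 13.71 against 13.35, 13.8 and 13.78 (-0.04), though another probe set of Fn1 was at -2.16. Of 27 proteases and inhibitors, 5 rose and 1 fell, and 3 fell without DMSO replicate 1. Mmp11 rose by 1.46, Timp2 by 0.93 and Timp1 by 0.92, and Adam19 fell by 1.26. Of 19 integrins, 2 rose and 3 fell, near the shares of all genes (11.6% and 10.8%). Itga7, a laminin receptor subunit, rose 6.05-fold, from 5.86, 4.97 and 5.56 to 7.36, 8.42 and 8.4, and Itgb3 fell by at least 1.13.

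Markers of other cells were read beside these values. Of all genes, 11.6% rose and 10.8% fell. The mean log2 level of 10 fibroblast markers was 6.12 to 6.17 over the DMSO arrays and 6.59 to 6.77 over the trametinib arrays. Col1a1, Col3a1, Dcn and Fap rose and Pdgfra fell, and Col1a2, Lum, Dpt, Pdpn, Thy1 and Fap were at or below the background level. Without DMSO replicate 2 or trametinib replicate 3, 2 of the markers rose, and the fall of Pdgfra was lost when DMSO replicate 2, DMSO replicate 3, trametinib replicate 1 or trametinib replicate 3 was left out. The part of fibroblasts in the collagen values was not tested. The macrophage markers Ptprc, Adgre1, Lyz2, Itgam, Aif1 and Tyrobp were at or below the background level in both groups, Cd68, Csf1r, Cd14 and Fcer1g were above it, and 0 of 10 rose or fell (mean level 4.54 to 4.75 and 4.52 to 4.68). Of 9 T and NK cell markers 1 rose (Cd3e, by 0.35), a call lost without any 1 of the DMSO arrays or of trametinib replicates 2 and 3. Of 10 keratinocyte markers 1 fell (Trp63) and of 10 endothelial markers 1 fell (Egfl7, by 1.28). These single calls are near the shares of all genes.

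Genes of cell state and of signalling between cells changed in small numbers. These counts stand beside the shares of all genes, 11.6% that rose and 10.8% that fell. Of 26 melanocyte lineage and pigment genes, 2 rose and 2 fell, both under the shares of all genes, and 4 rose without +dox trametinib replicate 1. Bcl2, the survival gene that MITF controls in melanocytes, was at 9.04, 9.53 and 9.67 with DMSO and at 7.4, 6.81 and 7.45 with trametinib, a 4.57-fold fall (adjusted p = 4e-05, another probe set at -1.03). Of 14 BCL2 family genes, Bcl2 fell and Bcl2l2 rose by 0.69, and 2 fell without +dox DMSO replicate 1 or 3. Mcl1, another survival gene, and Bcl2l11, which encodes the killer protein BIM, did not pass (0.17 and -0.21). Of 25 neural crest genes, 1 rose and 3 fell, and 2 rose without +dox DMSO replicate 2, −dox DMSO replicate 1 or −dox DMSO replicate 3, or either of trametinib replicates 1 and 3. Sox6, a SOX transcription factor, rose 6.22-fold, from 7.1, 6.03 and 6.6 to 9.24, 8.96 and 9.44 (another probe set at 1.34), and Aqp1, a water channel, fell by at least 2.53. Of 19 EMT factors and cadherins, 1 rose and 2 fell. Zeb1 rose by 0.44 and Twist2 fell by 1.35, while Vim, vimentin, was at 13.68, 13.96 and 13.95 and at 13.92, 13.82 and 13.9 (0.02). Another probe set of Zeb1 was at -1.09, and the list's falls ran from 1 without −dox DMSO replicate 2 or −dox DMSO replicate 3, or either of trametinib replicates 1 and 3 to 4 without DMSO replicate 1.

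Of 32 genes of TGF-beta and BMP signalling, 8 rose and 3 fell. Tgfb2, a ligand, rose by 1.48, Inhba, the activin subunit, by 1.45 and Chrd, the BMP antagonist chordin, by 1.08, and Tgfbr3, the co-receptor betaglycan, fell by 2.20 (another probe set at -0.92). Without trametinib replicate 3, 5 rose and 1 fell, and 1 fell without DMSO replicate 2 or 3. Of 40 Wnt genes, 4 rose and 4 fell, near the shares of all genes (11.6% rose and 10.8% fell). The largest rise in this list was that of Wnt9a, at 6.34, 6.24 and 5.92 with DMSO and 7.9, 7.83 and 8.25 with trametinib (1.83). Falls among the Wnt genes numbered 1 without DMSO replicate 3 or trametinib replicate 3 and 2 without trametinib replicate 1 or 2 or +dox DMSO replicate 2, and with median centring 10 rose. Of 19 Eph receptors and ephrins, 2 rose and 2 fell, also near the shares of all genes, counts that went from 0 to 2 and from 1 to 4 as single arrays were left out, with 0 rises without DMSO replicate 2 or trametinib replicate 1 or 2. Epha2 kept its call and fell 4.62-fold, from 8.57, 9.36 and 9.2 to 6.86, 6.76 and 6.89. Of 36 semaphorins and related guidance genes, 4 rose and 6 fell, beside 11.6% and 10.8% of all genes. There were 2 rises without trametinib replicate 2, 2 falls without trametinib replicate 1 or 3 and 3 falls without DMSO replicate 3. Ntn1, netrin-1, rose 8.63-fold, from 9.49, 6.3 and 7.22 to 11.48, 9.92 and 10.94, with replicate 1 the highest in both groups and another probe set at 1.18.

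Of 23 SRF and YAP targets, 3 rose and 2 fell, beside 11.6% and 10.8% of all genes. The list counts that follow in this paragraph are to be read beside the same shares. Nuak2, a YAP target kinase, fell 4.03-fold, from 9.18, 9.35 and 9.56 to 7.34, 7.3 and 7.42 (standard error 0.143 on the log2 scale, adjusted p = 1.7e-05). The 3 that rose were Actg2, Amotl2 and Lats2 (another probe set of Lats2 was at -0.74), and 0 rose without DMSO replicate 1 or trametinib replicate 2 and 1 without trametinib replicate 3. Ccn1, a target of both, did not pass (-0.36), though further probe sets of Ccn1 were at -2.89 and -2.83. Of 24 FOXO and PI3K feedback genes, 5 rose, led by Gadd45b (1.59), and 4 fell, with 3 rises and 2 falls without trametinib replicate 2 or 3. Of 27 ABC transporters, 5 fell and 2 rose, with 5 rises without DMSO replicate 1, 1 without trametinib replicate 3, and 3 falls without −dox DMSO replicate 2 or −dox DMSO replicate 3, or either of trametinib replicates 1 and 3. Abca9 was at 8.62, 9.39 and 9.55 with DMSO and at 5.0, 5.79 and 5.81 with trametinib, a 12.6-fold fall (adjusted p = 0.00036, another probe set at -1.05), while the drug efflux pump gene Abcc1 did not pass, at 11.0, 10.71 and 10.64 against 11.11, 10.53 and 10.7. Of 15 voltage-gated calcium channel subunits, Cacna2d3 rose by at least 0.45 and Cacna2d2 fell by 1.82, a call that was lost when any of 7 single arrays was left out (5 −dox arrays, +dox DMSO replicate 2 and +dox trametinib replicate 1).

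The −dox response was set against that of +dox cells by a test of the difference itself. It passed for 60 of 18193 genes (0.33%), 16 of which were called over 2-fold in −dox cells. Of these 16, 9 had the larger change in −dox cells, and 6 of the 9 did not pass in +dox cells. The count was unstable: leaving out a single array gave from 13 (without +dox DMSO replicate 3) to 200 (without −dox DMSO replicate 1), and median centring gave 217. The 9 genes were named after their values were seen. Mfap3l, a membrane protein of the microfibril-associated family, was at 7.48, 7.25 and 7.53 with DMSO and at 9.55, 9.29 and 9.36 with trametinib. It rose by 1.98 in −dox cells against 0.07 in +dox cells (adjusted p of the difference = 0.0075). Msh3, a mismatch repair protein, fell by 1.16, from 8.16, 8.12 and 8.17 to 7.0, 7.15 and 6.83, against -0.19 in +dox cells (adjusted p = 0.03). Prss46, a serine protease, rose by at least 1.77, with a change of 0.57 in +dox cells (adjusted p = 0.0075).

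Diras2, a RAS-related GTPase, was at 7.4, 6.84 and 6.95 with DMSO and at 4.32, 5.26 and 4.22 with trametinib, and Gcnt2, a glycosyltransferase, was at 7.83, 8.1 and 8.0 and at 9.18, 10.21 and 9.47. Diras2 fell by at least 2.19 against -0.21 in +dox cells, and Gcnt2 rose by 1.64 against -0.48 (both adjusted p = 0.032). Lmcd1 fell by at least 1.58 against -0.14, and Egr2 by at least 3.96 against -1.87. Zfp608 and Zfp467, both zinc finger genes, fell by 1.05 and 1.32 against changes of 0.41 and 1.29, and the change of Zfp467 was thus of like size and opposite sign. The differences of Mfap3l and Prss46 passed whichever of the 12 arrays was left out, that of Msh3 in 5 of 12 such fits, those of Diras2 and Gcnt2 in 5 and 4, that of Lmcd1 in 2, those of Egr2 and Zfp608 in 3 each and that of Zfp467 in 9.

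**Figure D5:**
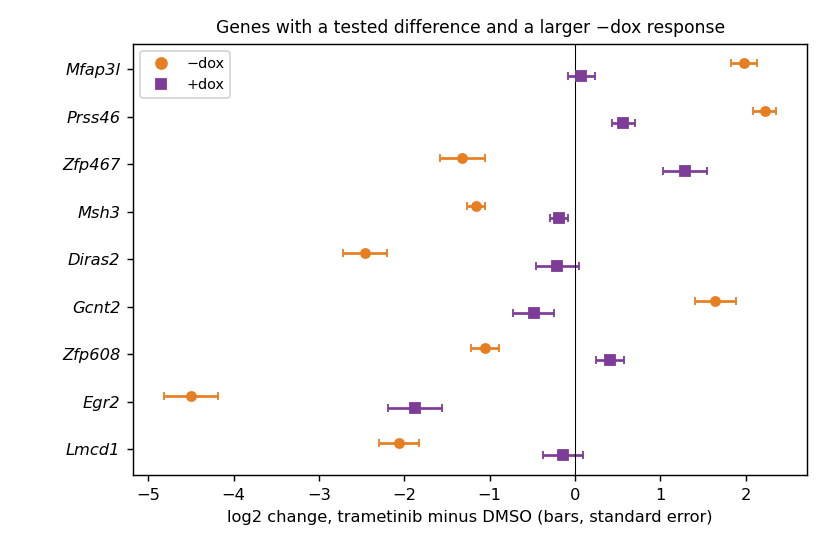
Log2 change with trametinib (x axis) in −dox cells (orange circles) and +dox cells (purple squares) for the 9 genes with a tested difference and the larger response in −dox cells; bars are the standard error of the limma fit, n = 3 arrays per group. The −dox changes of Prss46, Diras2, Egr2 and Lmcd1 are fitted values with a group mean under the background level. Zfp467, Gcnt2 and Zfp608 lie on opposite sides of 0 in the cell states, and Mfap3l, Diras2, Lmcd1 and Msh3 lie near 0 in +dox cells.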

How the data were processed

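Biotin-labelled cRNA of 12 samples, 3 in each of 4 groups, was measured on whole-genome Affymetrix mouse arrays. The authors normalised the arrays with RMA in Chipster and deposited log2 values with 2 decimals. Of 45101 probe sets, 64 controls, 932 with several genes and 9160 with no gene in the platform annotation used here were left out. Of the 34945 with 1 gene, 34754 had a gene ID in the RefSeq table. Each of 18193 genes was represented by its brightest probe set, by the mean of the 12 arrays. The background level of 4.87 was the 95th percentile of the means of 84 olfactory, vomeronasal and taste receptor probe sets. A gene whose mean in 1 group was under it has only a bound there: its change, printed as "at least", is the other group's mean minus the level.

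All 4 groups were fitted without a further factor in limma 3.58.1 (R 4.3.3), with Benjamini-Hochberg adjustment over all genes. Fold changes are trametinib over DMSO. "Rose" and "fell" mean an adjusted p under 0.05, "over 2-fold" adds a fold above 2, and the difference between cell states is the interaction of the fit. The steps were tested on simulated data. Alternatives were the mean of probe sets, a filter at the background level, further quantile normalisation, median centring, array weights, trended and robust moderation, the 6 −dox arrays alone, other thresholds, the replicate number as a block and leaving out each array. Promoters were searched with Python 3.11.15 and plots made with matplotlib 3.10.9.

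Named genes were the 12 largest rises and the 12 largest falls among called genes with separate arrays and a group mean above background, up to 5 called and 3 uncalled members of each list, the markers, and list genes whose call rests on 1 array. The comparison, the members and the lists were chosen with earlier results of these data known. Correlations of the deviations of same-numbered −dox DMSO and −dox trametinib arrays were 0.298, 0.456 and 0.0221. These values do not decide whether the replicate numbers pair the samples. The labels do not say it either, so the main fit left the numbers out, and counts with them as a block are given below.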

Additional observations from a re-analysis of the deposited data

Results flagged for a closer look

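For 18 genes named in the gene lists or above, the response of −dox cells differed from that of +dox cells by limma's test of the difference itself, which is given as the +dox change minus the −dox change on the log2 scale. Of 30 interferon response genes, 7 rose more in +dox cells, and the test passed for 0.33% of all genes. Ifit1 differed by 4.65 (2.14 in −dox and 6.78 in +dox cells), Iigp1 by 4.60, Rsad2 by 3.59, Gbp2 by 3.44, Oasl2 by 3.43, Gbp3 by 3.36 and Samd9l by 2.30. That of Samd9l passed whichever of the 12 arrays was left out, those of Gbp2 and Ifit1 in 7 of the 12 such fits, and those of the others in 3 to 5. Frzb, a secreted Wnt antagonist, differed by 2.44 and was below the background level on all −dox arrays. Fgf1 differed by 0.92.

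The genes with the larger change in −dox cells were Egr2 (2.63), Zfp467 (2.61), Diras2 (2.26), Lmcd1 (1.92), Zfp608 (1.47) and Msh3 (0.97), which fell in −dox cells, and Gcnt2 (-2.13), Mfap3l (-1.91) and Prss46 (-1.65), which rose there. Egr2, Diras2, Lmcd1 and Prss46 had a −dox group mean under the background level, Fgf1 had both under it, and Ifit1 and Iigp1 were under it in +dox DMSO cells, so their differences are fitted values and not exact sizes.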

How the results depend on the processing

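The count of 1380 genes over 2-fold kept within 1.5 times itself under each other setting at that fold, from 1128 (adjusted p under 0.01) to 1555 (array weights), and from 1230 to 1450 when an array was left out. It was 2818 at a fold of 1.5 and 4072 with no fold threshold. The count of 60 genes with a difference between cell states was 24 among genes above the background level, 217 with median centring, 1066 with array weights and 141 with the replicate block, and ran from 13 to 200 when an array was left out; the cause was not tested. With the replicate block the count over 2-fold was 1453 and held all 1380 genes, and the replicate numbers are not known to pair the samples. Of the other values computed under the planned settings, most of them counts of the gene lists, 242 moved and 1720 did not, and Hp, among the 24 genes with the largest changes, lost its call without −dox DMSO replicate 3 (adjusted p = 0.053) and in the 6 −dox arrays alone (0.083). With 3 arrays per group, genes near the background level and counts resting on few list members are the least certain.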
